A study of Mus musculus with 24 samples.

Results

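The proteins of the Bcl2 family decide at the mitochondrion whether a cell lives or dies. The survival members Bcl2, Bcl2l1 (Bcl-xL) and Mcl1 hold in check the effectors Bax and Bak1, which open pores in the outer mitochondrial membrane, release cytochrome c and so lead to activation of caspases. A further class, named after the BH3 domain that they carry, senses stress or loss of growth factor and binds the survival members or the effectors. It includes Bcl2l11 (Bim), Bid, Bad, Pmaip1 (Noxa) and Bbc3 (Puma). Monocytes are short-lived cells that depend on growth factor signals, and survival members of this family are known to set how long they persist.

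The levels of these 10 genes, chosen by name from 23930 measured amplicons, were followed in 2 subsets of splenic monocytes (called macrophages in the sample labels) from C57BL/6 mice of 3 genotypes. The mice were untreated WT mice, Slc29a3-/- mice and Slc29a3-/- Tlr7-/- mice. Slc29a3 encodes a nucleoside transporter of the lysosome, and Tlr7 an endosomal receptor for RNA and guanosine. The Slc29a3 allele was made by inserting a stop codon with CRISPR/Cas9 in zygotes. The WT mice were bought whereas the mutants were bred in house, so the origin of the mice and the genotype cannot be told apart. No mice lacking only Tlr7 were analysed here. Spleen cells were first depleted of other lineages with beads (CD3, NK1.1, Ly6G and TER-119 positive cells among them), and CD11b+ NK1.1- Ly6G- SiglecF- cells were then sorted as Ly6Chi with low Fcgr4 protein (Ly6Chi) or Ly6Clow with high Fcgr4 protein (Ly6Clow). Each of the 6 groups held 4 libraries, 24 in all. The age of the mice and the number of mice per library are not given in the sources used here, and nothing states that the 4 libraries of a group came from separate animals, so P values measure the spread between these libraries, which may be technical.

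Levels are reads scaled to 1000000 per library (RPM), and each stands for 1 short PCR product of a gene. PCR products differ in yield, so levels are compared between libraries and not between genes. The step between the lowest values gave 12311031 to 14572269 reads per library, at which 1 read is worth 0.0686 to 0.0812 RPM. WT replicates 1 to 3 of both subsets had 14237334 to 14572269 reads and barcode numbers 11 to 16. WT replicate 4 and all mutant libraries had 12311031 to 13048385 reads and barcode numbers 24 to 46. In comparisons with WT this split runs largely along genotype, and its part in the results was not tested. The gated marker Fcgr4 ranged from 25.97 to 62.5 RPM in Ly6Chi and from 605 to 3017 RPM in Ly6Clow libraries, and 4 Ly6Chi marker genes summed to 2319 to 6768 RPM in Ly6Chi against 13.6 to 269 RPM in Ly6Clow. The Slc29a3 and Tlr7 amplicons did not check the genotype labels, since Slc29a3 was at 127 to 173 RPM in Ly6Chi Slc29a3-/- libraries (163 to 225 RPM in WT) and Tlr7 at 259 to 345 RPM in Ly6Chi Slc29a3-/- Tlr7-/- libraries. Xist was found in 14 libraries, Y-linked transcripts in 7 and both in 3, and WT replicate 4 was the only WT library of either subset with Y-linked transcripts. The WT libraries did not vary evenly. In Ly6Chi, WT replicates 1 to 3 differed from each other by a median absolute log2 ratio of 0.099 to 0.11 over 6673 genes, against 0.185 to 0.36 in the 15 other pairs of a group, and in Ly6Clow the ranges were 0.133 to 0.205 and 0.129 to 0.574. The sum of 14 immediate early genes was 16968, 16860 and 16948 RPM in Ly6Chi WT replicates 1 to 3 and 1672 RPM in replicate 4, with 821 to 4468 RPM in the mutants. In Ly6Clow WT it was 20307, 14654, 18594 and 2732 RPM, with 3190.4 to 9279 RPM in the mutants. Comparisons with WT are therefore also given with replicate 4 as the only WT library and with replicates 1 to 3 averaged to 1 library. The second alternative was chosen after seeing the data.

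The clearest differences among the 10 genes lay between the subsets and not between the genotypes. In all 3 genotypes Bcl2 was lower and Bad higher in Ly6Chi than in Ly6Clow monocytes. Bcl2 differed by 2.94-fold, 4.99-fold and 4.21-fold in WT, Slc29a3-/- and Slc29a3-/- Tlr7-/- mice, and Bad by 2.60-fold, 2.13-fold and 2.63-fold. Between genotypes, 4 genes were lower in Ly6Chi Slc29a3-/- than in WT monocytes, and none of those calls held when WT replicates 1 to 3 counted as 1 library, a fit with fewer WT libraries in which the share of all genes that passed fell from 27.9% to 7.67%.

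**Figure D1:**
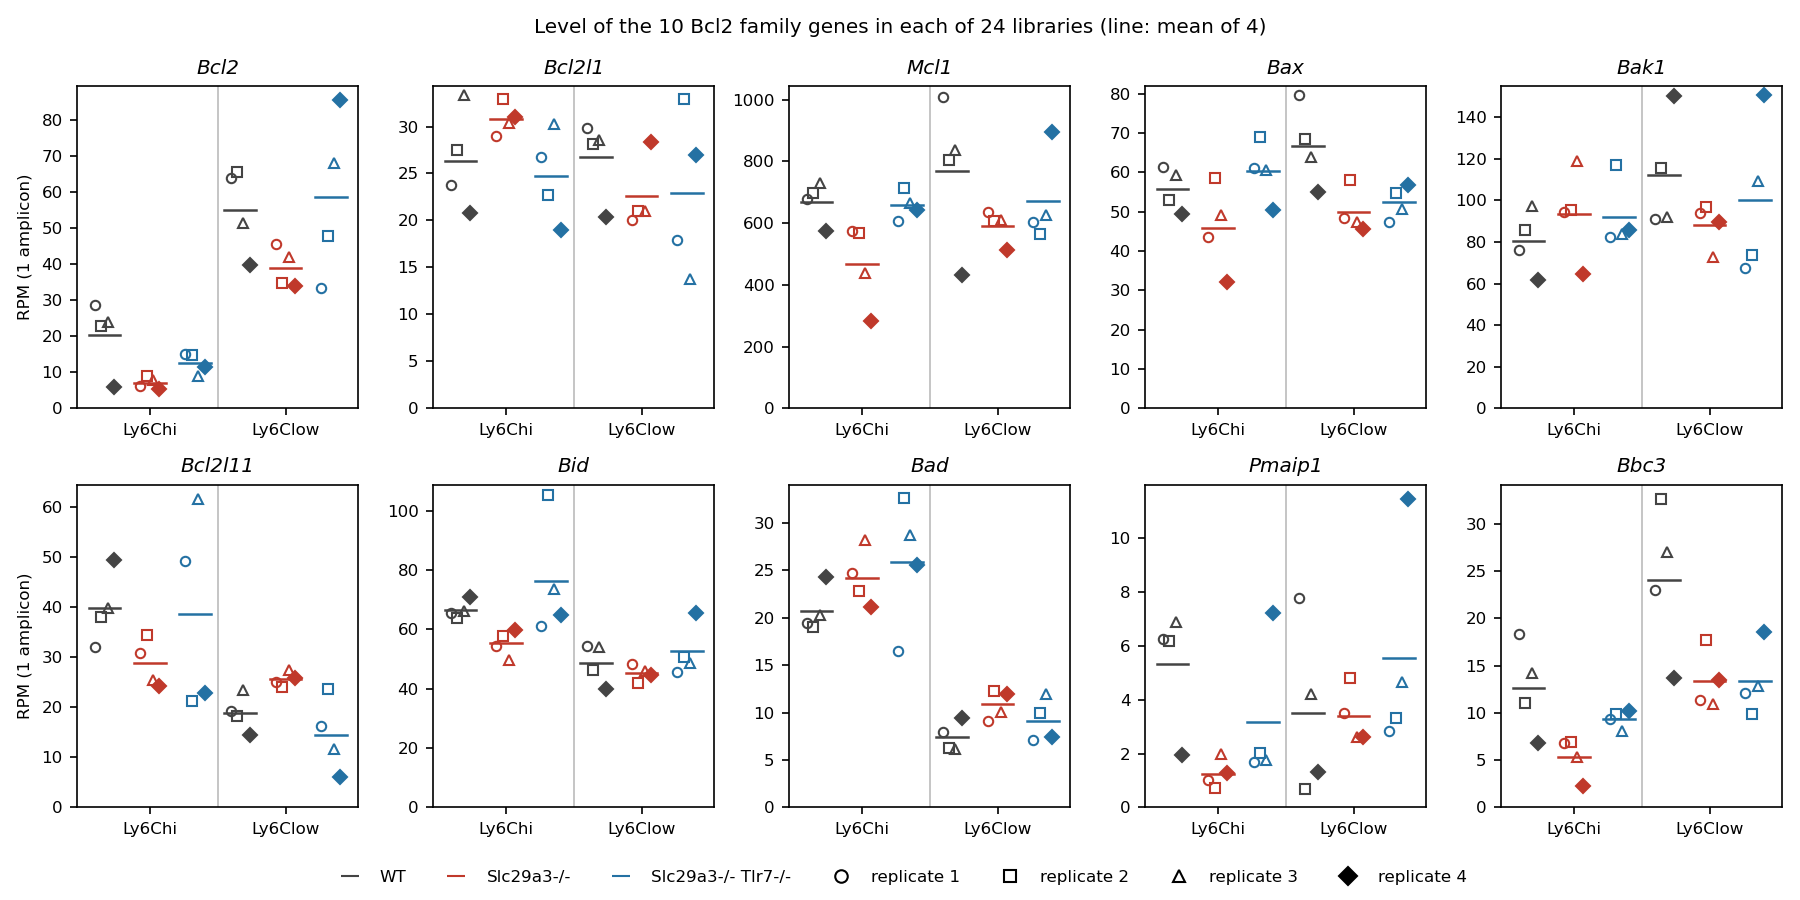
Level of each gene (vertical axis, RPM of 1 amplicon, linear from 0) in the 24 libraries. Colours mark genotypes, symbols mark replicates (filled diamond: replicate 4), and lines mark the mean of 4. Bcl2 lay between 5.24 and 28.7 RPM in Ly6Chi and between 33.4 and 85.3 RPM in Ly6Clow libraries, and Bad between 16.5 and 32.7 RPM and between 6.11 and 12.2 RPM.

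Bcl2, which keeps Bax and Bak1 inactive, was measured at 28.7, 22.8, 23.9 and 6.01 RPM in Ly6Chi WT and at 63.7, 65.5, 51.3 and 39.8 RPM in Ly6Clow WT libraries. In Slc29a3-/- mice the values were 6.13, 9.01, 8.01 and 5.24 RPM in Ly6Chi and 45.5, 34.7, 42.0 and 33.9 RPM in Ly6Clow. In Slc29a3-/- Tlr7-/- mice they were 15.2, 14.9, 9.03 and 11.4 RPM in Ly6Chi and 33.4, 47.8, 68.1 and 85.3 RPM in Ly6Clow. Every Ly6Clow library was above every Ly6Chi library, and replicate 4 was the lowest of WT in both subsets. The log2 fold change of Ly6Chi over Ly6Clow was -1.55 ± 0.34 (SE) in WT (adjusted P = 0.00087 in limma), -2.32 ± 0.34 in Slc29a3-/- (adjusted P = 3.82e-06) and -2.07 ± 0.34 in Slc29a3-/- Tlr7-/- mice (adjusted P = 2.85e-05). The exact permutation test gave P = 0.029 in each genotype, the smallest that 4 against 4 libraries allow. All settings tried kept the call in each genotype (18 in WT and 17 in each mutant).

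Bad, a BH3-only protein that binds Bcl2 and Bcl-xL and is inactivated by growth factor signalling, showed the opposite order. It was at 19.4, 19.0, 20.2 and 24.3 RPM in Ly6Chi WT and at 7.97, 6.25, 6.11 and 9.43 RPM in Ly6Clow WT libraries. Ly6Chi libraries of Slc29a3-/- mice had 24.7, 22.9, 28.2 and 21.1 RPM and Ly6Clow libraries 9.14, 12.2, 10.1 and 11.9 RPM, and in Slc29a3-/- Tlr7-/- mice the values were 16.5, 32.7, 28.7 and 25.5 RPM and 7.11, 9.93, 11.9 and 7.43 RPM. The lowest Ly6Chi library was thus above the highest Ly6Clow library within and across genotypes. The log2 fold change was 1.38 ± 0.20 (SE) in WT (limma, adjusted P = 9.07e-06), 1.09 ± 0.20 in Slc29a3-/- (adjusted P = 0.00011) and 1.40 ± 0.20 in Slc29a3-/- Tlr7-/- mice (adjusted P = 6.78e-06), and it passed in every setting tried.

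Bcl2l11 encodes Bim, a BH3-only protein that binds all survival members and whose transcript rises in many blood cells upon loss of growth factor. Its levels were 32.05, 38.02, 39.9 and 49.5 RPM in Ly6Chi WT and 19.2, 18.2, 23.5 and 14.4 RPM in Ly6Clow WT libraries. These groups did not overlap, and Bcl2l11 was higher in Ly6Chi by 1.05 ± 0.31 (SE) on the log2 scale (limma, adjusted P = 0.012). In Slc29a3-/- Tlr7-/- mice the Ly6Chi libraries held 49.2, 21.2, 61.7 and 22.9 RPM and the Ly6Clow libraries 16.2, 23.7, 11.6 and 6.15 RPM. These groups overlapped, since Ly6Clow replicate 2 was above Ly6Chi replicates 2 and 4, and the log2 fold change was 1.36 ± 0.31 (SE; limma, adjusted P = 0.0013; exact permutation P = 0.086). The Slc29a3-/- mice had Bcl2l11 at 30.9, 34.6, 25.5 and 24.3 RPM in Ly6Chi and at 25.1, 24, 27.4 and 25.9 RPM in Ly6Clow. There the ranges overlapped and the log2 fold change was 0.15 (95% CI -0.49 to 0.79; limma, adjusted P = 0.73). The WT call was lost with replicates 1 to 3 averaged to 1 library (12.9% of all genes then passed), and the Slc29a3-/- Tlr7-/- call with only the groups compared in the model.

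Bbc3 encodes Puma, a BH3-only protein whose gene is a classical target of p53. It was at 18.3, 11.03, 14.2 and 6.79 RPM in Ly6Chi WT and at 23.0, 32.6, 27.04 and 13.6 RPM in Ly6Clow WT libraries. The groups overlapped through replicate 4 of Ly6Clow, the lowest of its group, and Bbc3 was lower in Ly6Chi by a log2 fold change of -0.90 ± 0.30 (SE; limma, adjusted P = 0.024; exact permutation P = 0.086), which passed in 11 of 18 settings. In Slc29a3-/- mice it was at 6.85, 6.96, 5.31 and 2.30 RPM in Ly6Chi and at 11.4, 17.8, 10.96 and 13.5 RPM in Ly6Clow. These groups did not overlap, and the log2 fold change of -1.24 ± 0.30 (SE; limma, adjusted P = 0.0016) passed in all 17 settings. In Slc29a3-/- Tlr7-/- mice the means were 9.37 ± 0.94 and 13.4 ± 3.67 RPM (SD, n = 4), and the log2 fold change was -0.44 with adjusted P = 0.27 in limma.

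Bid, which caspase 8 cleaves to link death receptors to the mitochondrion, was higher in Ly6Chi in 2 genotypes. It averaged 66.7 ± 3.06 RPM in Ly6Chi and 48.7 ± 7.02 RPM in Ly6Clow WT libraries (SD, n = 4), without overlap, a log2 fold change of 0.46 ± 0.15 (SE; limma, adjusted P = 0.027). In Slc29a3-/- Tlr7-/- mice it averaged 76.3 ± 20.1 and 52.6 ± 8.80 RPM, with overlap, a log2 fold change of 0.51 ± 0.15 (SE; limma, adjusted P = 0.013; exact permutation P = 0.086). For Slc29a3-/- the means were 55.3 ± 4.46 and 45.3 ± 2.71 RPM, again without overlap, but the log2 fold change of 0.28 had an adjusted P of 0.15 in limma. The WT call passed in 11 of 18 and the Slc29a3-/- Tlr7-/- call in 13 of 17 settings.

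The remaining genes did not pass between subsets. Mcl1, the survival member with the shortest-lived protein, averaged 669.7 ± 68.3 RPM in Ly6Chi and 770.4 ± 243 RPM in Ly6Clow WT libraries (SD, n = 4), and its log2 fold change lay between -0.39 and -0.01 over the 3 genotypes. Bcl2l1 lay between -0.03 and 0.44, Bax between -0.25 and 0.19, Bak1 between -0.47 and 0.05 and Pmaip1 between -0.96 and 0.69. Of these, Pmaip1 and Bcl2l1 did not overlap between subsets in Slc29a3-/- mice, Pmaip1 at 1.25 ± 0.54 RPM in Ly6Chi against 3.38 ± 1.03 RPM in Ly6Clow (limma, adjusted P = 0.097) and Bcl2l1 at 30.8 ± 1.66 against 22.6 ± 3.87 RPM (adjusted P = 0.11). Both passed when only these 2 groups were in the model.

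The counts are to be read against the whole table. Of the 10 genes, 5 passed in WT, where 29.6% of 11042 genes did, and 4 did not overlap between subsets, against 33.8% of all genes. In Slc29a3-/- mice 3 passed against 41.2% of all genes and 6 did not overlap against 48.7%. In Slc29a3-/- Tlr7-/- mice 4 passed against 33.3% and 2 did not overlap against 24.7%. The shares among the 10 genes were thus not far from those of all genes in any genotype.

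Sums of proliferation genes and of genes listed as markers of other cells also stood apart between the sorted subsets. Such a sum follows its most abundant genes and does not measure how many other cells were present. Over the 12 libraries of each subset, 12 neutrophil markers summed to 13579 to 142482 RPM in Ly6Chi and 8.50 to 2559 RPM in Ly6Clow, 8 progenitor markers to 372 to 2905 RPM and 7.32 to 74.6 RPM, and 13 proliferation genes to 484 to 2606 RPM and 114 to 194 RPM. The order was opposite for 8 conventional dendritic cell markers, at 112 to 427 RPM and 926 to 1843 RPM, and for 6 B cell markers, at 17.6 to 58.8 RPM and 79.6 to 248 RPM. The sums for T cells, NK cells, erythroid cells, plasmacytoid dendritic cells and red pulp macrophages overlapped, and every marker of these lists was above the floor of 3 reads in some library of each subset. The part of other cells in the differences between subsets was not tested.

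**Figure D2:**
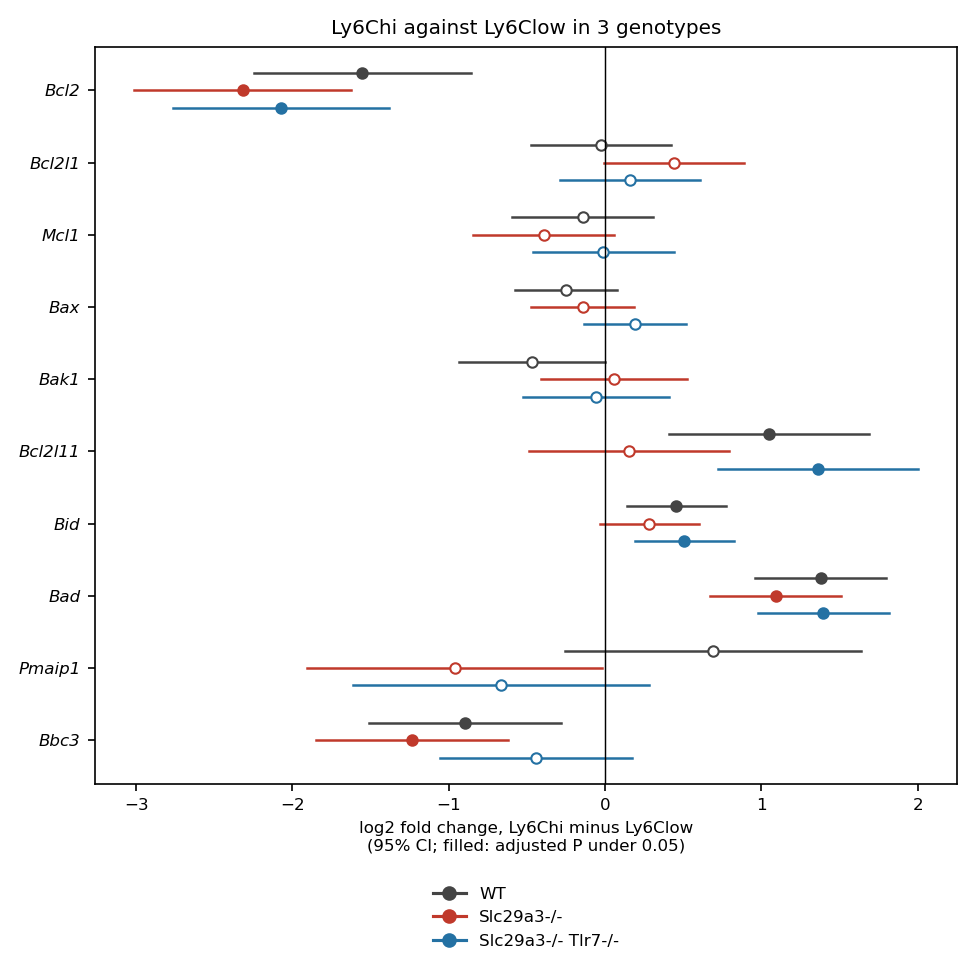
Log2 fold change of Ly6Chi over Ly6Clow (horizontal axis, with 95% CI) for each gene in WT (grey), Slc29a3-/- (red) and Slc29a3-/- Tlr7-/- mice (blue), with filled points at an adjusted P under 0.05. Bcl2 lies left of 0 and Bad right of 0 in every genotype, whereas Bcl2l11 is filled in WT (1.05) and Slc29a3-/- Tlr7-/- mice (1.36) and open in Slc29a3-/- mice (0.15).

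The DNA before the start sites of 3 of these genes, Bcl2, Bcl2l11 and Bbc3, is shown. They differed between subsets, Bcl2 and Bbc3 also between genotypes, and their 250 bases hold letters of motifs searched in all 10 genes. Bad, which differed between subsets in every genotype, and Bid are not shown, since none of these motifs stood before their start sites. The choice thus rested in part on the matches. RefSeq promoter entries (GRCm38.p6) were found for 9 of the 10 genes, with 15 start sites. Both strands were searched for GTAAACA (bound by FOXO factors, which control Bim and Puma in growth factor withdrawal), TGANTCA (AP-1), TGACGT (the core of the cyclic AMP response element) and GCGGGGGCG (EGR). Capitals mark the matches, which did not overlap one another, and each sequence runs 5′ to 3′ on the gene's strand up to the base before the start site. Bcl2 spans chr1:106538178-106714274 on the minus strand, and the printed bases are chr1:106714291-106714540, with TGACGT 107 bases before the start. Bcl2l11 spans chr2:128126038-128162547 on the plus strand, and the printed bases are chr2:128125788-128126037, with GTAAACA 227 and GCGGGGGCG 50 bases before the start. Bbc3 spans chr7:16308393-16318205 on the plus strand, and the printed bases before the second of its 3 start sites are chr7:16310011-16310260, with the FOXO letters on the other strand (TGTTTAC) 167 bases before the start.
Bcl2: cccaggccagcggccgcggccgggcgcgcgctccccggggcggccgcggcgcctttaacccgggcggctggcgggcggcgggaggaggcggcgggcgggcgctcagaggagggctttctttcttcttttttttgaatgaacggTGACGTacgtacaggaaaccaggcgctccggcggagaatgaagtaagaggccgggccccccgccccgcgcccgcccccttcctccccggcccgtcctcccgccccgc
Bcl2l11: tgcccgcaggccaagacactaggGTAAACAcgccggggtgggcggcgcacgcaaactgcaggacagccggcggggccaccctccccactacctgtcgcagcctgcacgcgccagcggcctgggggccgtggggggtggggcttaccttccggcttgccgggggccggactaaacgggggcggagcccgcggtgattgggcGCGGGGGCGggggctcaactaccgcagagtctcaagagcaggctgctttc
Bbc3: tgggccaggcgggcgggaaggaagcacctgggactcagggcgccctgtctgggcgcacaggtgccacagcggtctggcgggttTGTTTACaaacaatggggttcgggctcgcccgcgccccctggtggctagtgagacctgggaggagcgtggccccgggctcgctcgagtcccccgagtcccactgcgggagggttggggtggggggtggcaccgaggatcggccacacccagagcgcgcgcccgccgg
No printed base lies in an annotated exon. Over all 32817 promoter entries of this length, 3.16% hold GTAAACA, 6.75% TGANTCA, 6.46% TGACGT and 2.57% GCGGGGGCG. Among the 15 start sites of these genes, GTAAACA stood before 2 (Bcl2l11 and Bbc3), GCGGGGGCG before 2 (Bcl2l11 and another start of Bbc3, 49 bases before it), TGACGT before 1 (Bcl2) and TGANTCA before 0. A match of letters describes the sequence and is not a measured site of binding.

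The comparison of Slc29a3-/- with WT mice asked what loss of the transporter changed within a subset. In Ly6Chi monocytes, 4 of the 10 genes passed, all lower in Slc29a3-/- mice: the survival members Bcl2 and Mcl1 and the BH3-only members Pmaip1 and Bbc3. Over all genes tested, 27.9% of 10561 genes passed, and 17.8% were lower (1072 higher and 1877 lower genes, or 1519 and 1370 after TMM scaling). The median log2 fold change of the 10 genes was -0.38 and that of all genes -0.14, which TMM scaling moved to -0.02. Relative to the shift of all genes the 4 genes were lower under either scaling, but Mcl1 did not pass after TMM. In bulk samples such as these, fewer cells of a type and less RNA per cell cannot be told apart.

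Bcl2 fell from a mean of 20.4 ± 9.91 RPM in WT to one of 7.10 ± 1.72 RPM in Slc29a3-/- libraries (SD, n = 4), a log2 fold change of -1.24 ± 0.37 (SE; limma, adjusted P = 0.022; exact permutation P = 0.11). Replicates 1 to 3 of WT, at 28.7, 22.8 and 23.9 RPM, were above all 4 Slc29a3-/- libraries, whereas replicate 4, at 6.01 RPM, lay inside their range of 5.24 to 9.01 RPM. It passed in 12 of 20 settings. With replicate 4 as the only WT library the log2 fold change was 0.18 (adjusted P = 0.85), and with replicates 1 to 3 averaged it was -0.77 (adjusted P = 0.29).

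Mcl1 was measured at 677, 697, 732 and 573 RPM in WT and at 575, 567, 439.9 and 285 RPM in Slc29a3-/- libraries. Replicate 4 was again the lowest of WT and lay below the highest Slc29a3-/- library, so the groups overlapped. The log2 fold change was -0.57 ± 0.19 (SE; limma, adjusted P = 0.036; exact permutation P = 0.057). It passed in 8 of 20 settings. Among others, it did not pass after TMM scaling (-0.43, adjusted P = 0.083), without Slc29a3-/- replicate 4 (-0.35, adjusted P = 0.075), with replicates 1 to 3 of WT averaged (-0.50, adjusted P = 0.24) or with replicate 4 as the only WT library (-0.35, adjusted P = 0.63).

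Pmaip1, whose product Noxa binds Mcl1, was at 6.24, 6.18, 6.86 and 1.95 RPM in WT and at 1.04, 0.712, 1.98 and 1.27 RPM in Slc29a3-/- libraries. WT replicate 4 was the lowest of its group and lay below 1 Slc29a3-/- library. The log2 fold change was -1.42 ± 0.39 (SE; limma, adjusted P = 0.015; exact permutation P = 0.057). It was -1.09 (adjusted P = 0.19) with WT replicates 1 to 3 averaged and -0.42 (adjusted P = 0.77) with replicate 4 as the only WT library. The call held in 16 of 19 settings. All of these levels are above the floor of 3 reads, which is 0.206 to 0.244 RPM.

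Bbc3 was at 18.3, 11.03, 14.2 and 6.79 RPM in WT and at 6.85, 6.96, 5.31 and 2.30 RPM in Slc29a3-/- libraries. Here too WT replicate 4 was the lowest WT library and the only one inside the Slc29a3-/- range. The log2 fold change was -1.10 ± 0.31 (SE; limma, adjusted P = 0.016; exact permutation P = 0.086), against -0.87 (adjusted P = 0.17) with WT replicates 1 to 3 averaged and -0.37 (adjusted P = 0.73) with replicate 4 alone, and it passed in 15 of 19 settings.

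The count of 4 thus became 0 in both alternatives for the WT libraries. These fits have fewer WT libraries and called fewer genes of any kind, 7.67% of all genes with replicates 1 to 3 averaged and 1.53% with replicate 4 alone against 27.9%, so a lost call there is no evidence that a gene did not differ. The count was 0 without WT replicate 3, 1 without replicate 1 and 2 without replicate 2, and it was 4 without replicate 4. It was 2 without Slc29a3-/- replicate 4. Several marker sums moved with the genotype in the same libraries. The 14 immediate early genes were all above the floor, and their sum was 1672 to 16968 RPM in WT and 821 to 1459 RPM in Slc29a3-/- libraries. The sum of 12 NF-kB target genes was 4109, 4158, 3986 and 1082 RPM in WT and 679 to 1160.5 RPM in Slc29a3-/- libraries. All 12 neutrophil markers were above the floor in both groups and summed to 24974 to 34215 RPM in WT and 77026 to 142482 RPM in Slc29a3-/- libraries, the highest being Slc29a3-/- replicate 4, which also had the lowest Mcl1 and Bbc3. The 8 granulocyte-monocyte progenitor markers summed to 372 to 471 RPM in WT and 876 to 2905 RPM in Slc29a3-/- libraries, the 7 T cell markers to 58.7 to 209.6 RPM and 10.2 to 20.1 RPM, and the 7 NK cell markers to 123 to 522 RPM and 25.7 to 44.9 RPM. The 8 conventional dendritic cell markers summed to 322 to 411 RPM in WT and 112 to 246 RPM in Slc29a3-/- libraries. For 6 plasmacytoid dendritic cell markers the sums were 218 to 329 RPM and 93.1 to 171 RPM, and for 6 B cell markers 40.8 to 58.8 RPM and 17.6 to 24.4 RPM. Slc29a3-/- replicate 4 had the lowest of each of these sums. Of these markers, Pacsin1 and Ebf1 were under the floor in every Slc29a3-/- library. The part of all these sums in the results was not tested.

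The other 6 genes did not pass in this comparison. Bid was the only one of the 10 whose libraries did not overlap, with 65.6, 64.0, 66.1 and 71.1 RPM in WT and 54.3, 57.6, 49.6 and 59.8 RPM in Slc29a3-/- libraries, whereas 33.7% of all genes did not overlap. All 4 WT libraries were above the highest Slc29a3-/- library, but the log2 fold change of -0.27 had an adjusted P of 0.22 in limma (exact permutation P = 0.029). Neither effector passed. Bax averaged 45.9 ± 10.98 RPM against 55.8 ± 5.53 RPM (log2 fold change -0.30, adjusted P = 0.21) and Bak1 93.4 ± 22.2 against 80.3 ± 15.3 RPM (0.20, adjusted P = 0.46). For Bcl2l11 the log2 fold change was -0.45 (95% CI -1.07 to 0.17), for Bcl2l1 0.24 (95% CI -0.14 to 0.62) and for Bad 0.21 (95% CI -0.21 to 0.63).

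**Figure D3:**
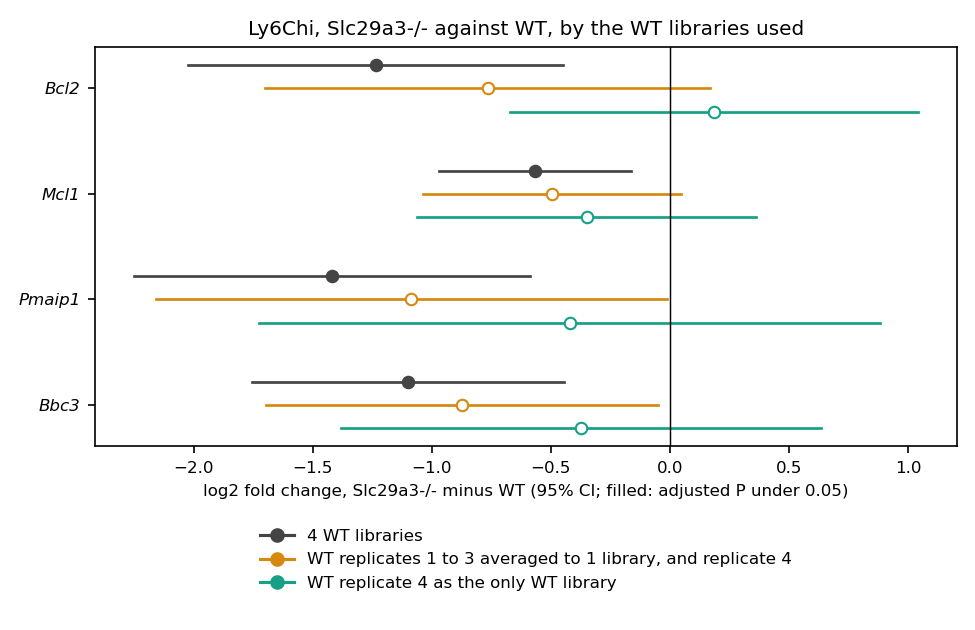
Log2 fold change of Ly6Chi Slc29a3-/- over WT monocytes (horizontal axis, with 95% CI) for the 4 genes that passed with 4 WT libraries (grey), with WT replicates 1 to 3 averaged to 1 library (orange) and with replicate 4 as the only WT library (green). Filled points have an adjusted P under 0.05. Bcl2 moves from -1.24 to 0.18, and no orange or green point is filled.

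In Ly6Chi monocytes of Slc29a3-/- Tlr7-/- mice, 0 of the 10 genes passed against WT and 0 had an unadjusted P under 0.05 in limma, whereas 1.46% of all genes passed. The 10 genes all overlapped between these groups, as did all but 11.8% of all genes. Bcl2 averaged 12.6 ± 2.94 RPM against 20.4 ± 9.91 RPM in WT (log2 fold change -0.49, adjusted P = 0.45). Without WT replicate 4, the lowest library, it passed (-0.96, adjusted P = 0.019). Mcl1, at 657 ± 43.8 RPM against 669.7 ± 68.3 RPM, had a log2 fold change of -0.02 with a 95% CI of -0.43 to 0.38.

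Between the mutants, which share the bred origin, 0 of the 10 genes passed in Ly6Chi monocytes (20.4% of all genes did), and 4 had an unadjusted P under 0.05 in limma: Mcl1, Bid, Bax and Bbc3. Mcl1, Bid, Bbc3 and Bcl2 did not overlap, each lower in Slc29a3-/- than in Slc29a3-/- Tlr7-/- mice, which makes 4 of 10 against 21.3% of all genes. The median log2 fold change of the 10 genes was -0.42, against -0.12 over all genes, which TMM scaling moved to -0.0045. After TMM scaling, Mcl1 (-0.43) and Bbc3 (-0.69) again had an unadjusted P under 0.05, whereas Bid (-0.31) and Bax (-0.29) did not. Bcl2l1, with a positive value (0.44), then had one too (limma, adjusted P = 0.092).

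Mcl1 was at 608, 713, 664 and 644 RPM in Slc29a3-/- Tlr7-/- libraries and at 575, 567, 439.9 and 285 RPM in Slc29a3-/- libraries. The lowest value of the former was above the highest of the latter, and the log2 fold change was -0.55 ± 0.19 (SE; limma, adjusted P = 0.054; exact permutation P = 0.029). It passed without Slc29a3-/- replicate 1 (-0.66, adjusted P = 0.032) or replicate 2 (-0.66, adjusted P = 0.030). Bid was at 61.1, 105, 73.7 and 65.0 RPM in Slc29a3-/- Tlr7-/- libraries, all above the Slc29a3-/- maximum of 59.8 RPM (-0.43 ± 0.16, SE; limma, adjusted P = 0.068). Bbc3 was at 9.32, 9.91, 8.08 and 10.2 RPM in Slc29a3-/- Tlr7-/- libraries, above the Slc29a3-/- maximum of 6.96 RPM (-0.78 ± 0.31, SE; limma, adjusted P = 0.084). Bcl2, at 15.2, 14.9, 9.03 and 11.4 RPM, was only just above the Slc29a3-/- maximum of 9.01 RPM (-0.75 ± 0.37, SE; limma, adjusted P = 0.17). Bax, an effector, averaged 60.3 ± 7.66 RPM in Slc29a3-/- Tlr7-/- and 45.9 ± 10.98 RPM in Slc29a3-/- libraries with overlap (-0.41, adjusted P = 0.11).

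Of the marker sums given for the comparison with WT, those of NF-kB targets, progenitor markers and NK cell markers overlapped between the mutants. Neutrophil markers summed to 13579 to 40799 RPM in Slc29a3-/- Tlr7-/- against 77026 to 142482 RPM in Slc29a3-/- libraries, T cell markers to 23.7 to 114 RPM against 10.2 to 20.1 RPM, and 13 proliferation genes to 484 to 780.0 RPM against 1557 to 2606 RPM. In Slc29a3-/- Tlr7-/- libraries conventional dendritic cell markers summed to 275 to 427 RPM and plasmacytoid dendritic cell markers to 232 to 314 RPM. B cell markers summed to 28.8 to 51.8 RPM there. These ranges lay above those of Slc29a3-/- libraries given for the comparison with WT. The part of all these sums in the result was not tested. For immediate early genes the ranges were 1869.5 to 4468 RPM and 821 to 1459 RPM.

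**Figure D4:**
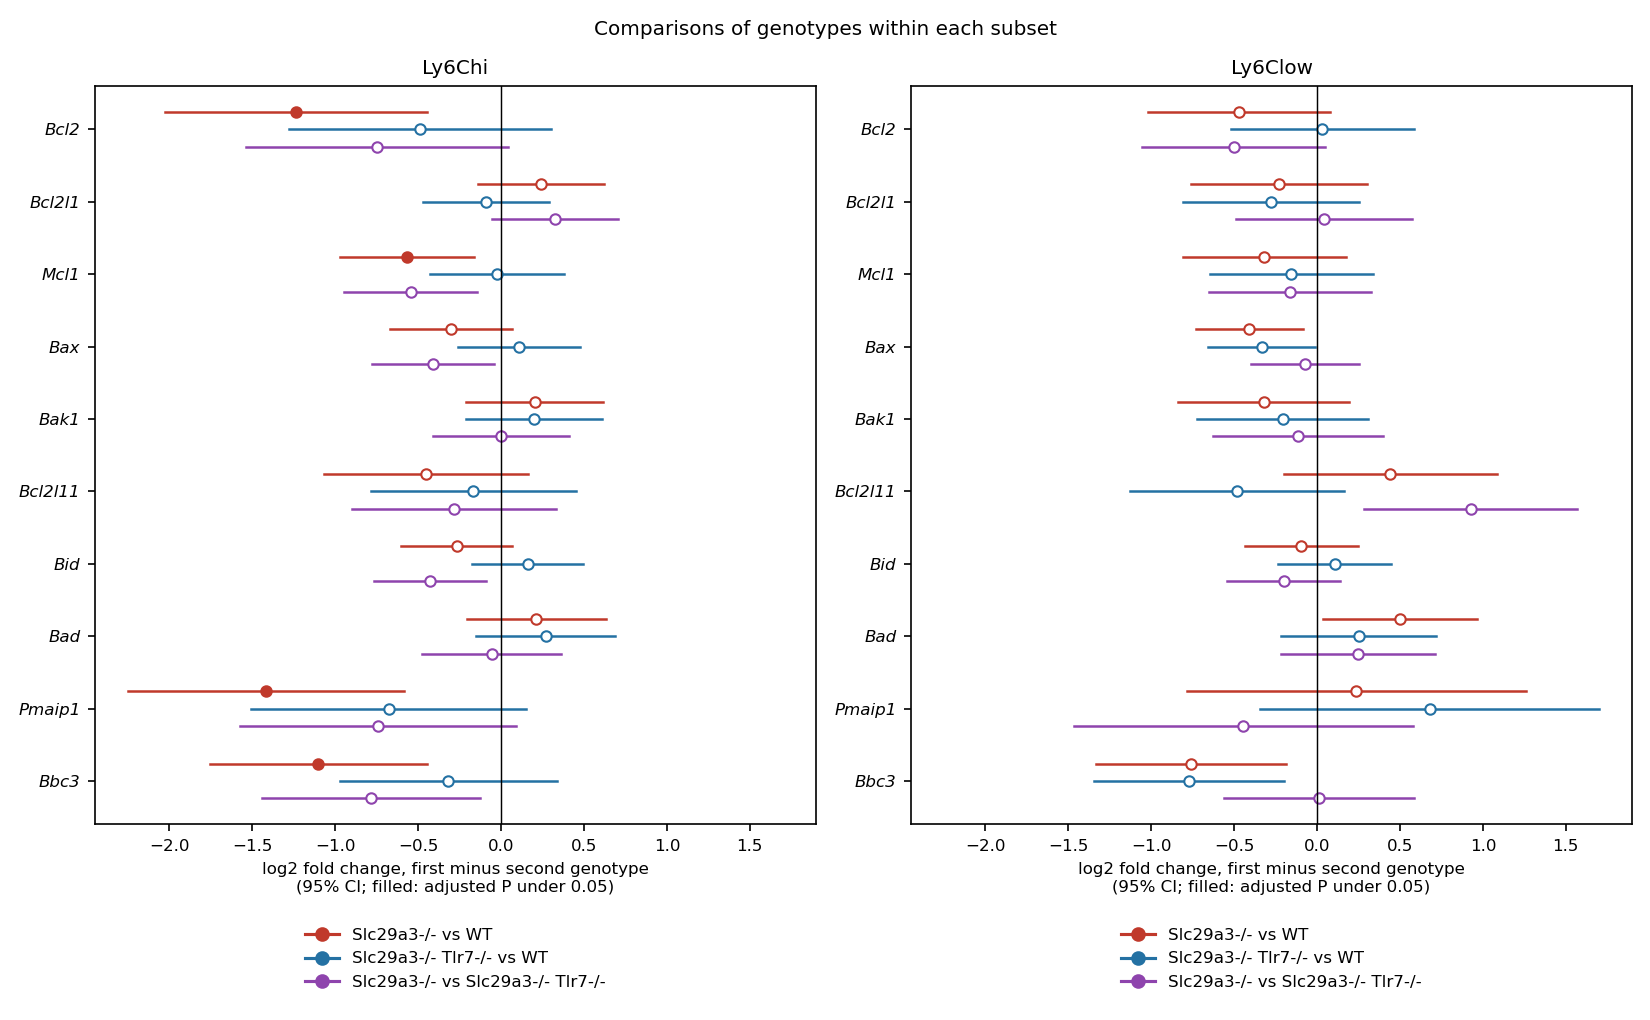
Log2 fold change between genotypes (horizontal axis, with 95% CI) for the 10 genes in Ly6Chi (left) and Ly6Clow monocytes (right): Slc29a3-/- over WT (red), Slc29a3-/- Tlr7-/- over WT (blue) and Slc29a3-/- over Slc29a3-/- Tlr7-/- (purple). The 4 filled points, with an adjusted P under 0.05, are Bcl2, Mcl1, Pmaip1 and Bbc3 in Ly6Chi Slc29a3-/- over WT.

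In Ly6Clow monocytes 0 of the 10 genes passed in any comparison of genotypes. The share of all genes that passed was 4.64% of 10317 for Slc29a3-/- against WT, 8.87% for Slc29a3-/- Tlr7-/- against WT and 1.93% between the mutants. At an unadjusted P under 0.05 in limma the counts among the 10 genes were 3 (Bad, Bax and Bbc3), 2 (Bax and Bbc3) and 1 (Bcl2l11).

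Among the 10 genes, Bcl2l11 was the one without overlap between Slc29a3-/- and either other genotype in this subset, by a narrow margin. It was at 25.1, 24, 27.4 and 25.9 RPM in Slc29a3-/- libraries, at 19.2, 18.2, 23.5 and 14.4 RPM in WT and at 16.2, 23.7, 11.6 and 6.15 RPM in Slc29a3-/- Tlr7-/- libraries. All 4 Slc29a3-/- libraries were above all other Ly6Clow libraries, of which Slc29a3-/- Tlr7-/- replicate 2 came nearest. Against WT the log2 fold change was 0.44 (95% CI -0.20 to 1.08; limma, adjusted P = 0.45; exact permutation P = 0.029), and Bcl2l11 was the 1 gene of 10 without overlap, against 17.7% of all genes. Against Slc29a3-/- Tlr7-/- mice it was 0.93 ± 0.30 (SE; limma, unadjusted P = 0.0080, adjusted P = 0.14), again the 1 gene of 10 without overlap, against 11.9% of all genes. It passed without Slc29a3-/- Tlr7-/- replicate 2, the highest of that group (1.199, adjusted P = 0.029). Some marker sums moved with it. The sum of 5 erythroid markers was 49.9 to 56.9 RPM in Slc29a3-/-, 11.4 to 20.4 RPM in WT and 5.03 to 16.1 RPM in Slc29a3-/- Tlr7-/- libraries, and that of 6 B cell markers was 79.6 to 130 RPM, 132 to 153 RPM and 201 to 248 RPM. At least 4 of the 5 erythroid and 3 of the 6 B cell markers were above the floor in each genotype, and their part in the result was not tested.

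Bbc3 and Bax had negative log2 fold changes in both mutants against WT that did not pass. Bbc3 was at 11.4, 17.8, 10.96 and 13.5 RPM in Slc29a3-/-, at 12.1, 9.93, 12.9 and 18.5 RPM in Slc29a3-/- Tlr7-/- and at 23.0, 32.6, 27.04 and 13.6 RPM in WT libraries. Replicates 1 to 3 of WT were above every mutant library and replicate 4 was among them. The log2 fold changes were -0.76 ± 0.27 and -0.77 ± 0.27 (SE; limma, adjusted P = 0.12 and 0.079), and they passed without WT replicate 4 (-0.997, adjusted P = 0.014, and -1.01, adjusted P = 0.012). The Bax mean was 66.8 ± 10.2 RPM in WT, against 49.9 ± 5.63 RPM with Slc29a3 lost and 52.5 ± 4.17 RPM with both genes lost (SD, n = 4), with log2 fold changes of -0.41 and -0.33 (adjusted P = 0.14 and 0.16). Bax and Mcl1 of Slc29a3-/- mice also passed without WT replicate 4 (-0.49, adjusted P = 0.033, and -0.57, adjusted P = 0.033). These comparisons share the WT libraries. With replicate 4 as the only WT library, 0 of the 10 genes passed in either, where 35 and 0 of all 10087 genes did. None of the 10 genes was without overlap between Slc29a3-/- Tlr7-/- and WT mice, against 12.3% of all genes.

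Among the others in Ly6Clow, Bad averaged 10.8 ± 1.48 RPM in Slc29a3-/- and 7.44 ± 1.57 RPM in WT libraries (log2 fold change 0.50 ± 0.22, SE; limma, adjusted P = 0.21). The Bcl2 mean was 55.1 ± 12 RPM in the WT group, against 39.02 ± 5.62 RPM with Slc29a3 lost and 58.7 ± 22.8 RPM with both genes lost, and its log2 fold change against WT was -0.47 and 0.03 (adjusted P = 0.33 and 0.95). For Mcl1 the values against WT were -0.32 (95% CI -0.81 to 0.17) and -0.15 (95% CI -0.64 to 0.34). Pmaip1 was between 0.686 and 11.4 RPM in this subset, and its groups overlapped in every comparison of genotypes.

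Whether a genotype acted differently in the subsets was tested as an interaction. None of the 10 genes passed, for Slc29a3-/- against WT (8.85% of 11042 genes did), for Slc29a3-/- Tlr7-/- against WT (0.0634%) or between the mutants (8.97%), and 1 had an unadjusted P under 0.05 in limma in each. For Pmaip1 the effect of Slc29a3-/- against WT in Ly6Chi minus that in Ly6Clow was -1.65 ± 0.65 (SE; log2, adjusted P = 0.12), and that of Slc29a3-/- Tlr7-/- was -1.36 ± 0.65 (adjusted P = 0.51). For Bcl2l11 the difference between the mutants was -1.21 ± 0.44 in Ly6Chi relative to Ly6Clow (adjusted P = 0.086). It passed without Ly6Chi Slc29a3-/- Tlr7-/- replicate 2 (-1.44) or 4 (-1.41), or without Ly6Clow replicate 2 (-1.48). The Bcl2 interaction for Slc29a3-/- against WT, -0.77 (adjusted P = 0.36), passed without Ly6Chi WT replicate 4 (-1.24, adjusted P = 0.030).

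Ratios within a library do not depend on its scaling, and were used as a description only. The log2 ratio of Bcl2 to Bax averaged -1.67 ± 0.92, -2.69 ± 0.10 and -2.28 ± 0.32 in Ly6Chi WT, Slc29a3-/- and Slc29a3-/- Tlr7-/- libraries (SD, n = 4) and -0.29 ± 0.17, -0.36 ± 0.29 and 0.08 ± 0.52 in Ly6Clow. The ratio was higher in every Ly6Clow than in every Ly6Chi library. In Ly6Chi WT it was -1.09, -1.21 and -1.31 in replicates 1 to 3 and -3.04 in replicate 4, the lowest of all 24. The log2 ratio of Bcl2 to Bcl2l11, a survival gene over a death gene, was 1.54 ± 0.32 in WT, 0.60 ± 0.20 in Slc29a3-/- and 2.10 ± 1.34 in Slc29a3-/- Tlr7-/- Ly6Clow libraries, and that of Mcl1 to Bcl2l11 was 5.31 ± 0.35, 4.53 ± 0.17 and 5.68 ± 1.11. For Bcl2 to Bcl2l11 the highest Ly6Clow Slc29a3-/- library (0.86) was below the lowest of the other genotypes (1.01). In Ly6Chi the Bcl2 to Bcl2l11 ratio was -1.17 ± 1.28, -2.04 ± 0.29 and -1.50 ± 0.98 in the same order of genotypes, and that of Mcl1 to Bcl2l11 was 4.08 ± 0.38, 3.98 ± 0.29 and 4.24 ± 0.83, with overlap. The ratio of Bcl2l1 to Bcl2l11 had opposite orders in the subsets, at -0.60 ± 0.44 in WT and 0.11 ± 0.22 in Slc29a3-/- Ly6Chi libraries and at 0.51 ± 0.17 and -0.19 ± 0.23 in Ly6Clow.

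Among the other genes of the pathway, 9 of 17 further Bcl2 family genes were analysed and 5 were tested. Of these 5, only Bmf, a BH3-only gene, passed between genotypes, in Ly6Clow Slc29a3-/- against WT mice (4.64% of all genes passed there). It was at 194, 191, 183 and 162 RPM in Ly6Clow Slc29a3-/- and at 92.4, 45.2, 71.9 and 156 RPM in Ly6Clow WT libraries, a log2 fold change of 1.13 ± 0.29 (SE; limma, adjusted P = 0.044). WT replicate 4 was the highest of WT and close to the lowest Slc29a3-/- library, and with WT replicates 1 to 3 averaged the value was 0.80 (adjusted P = 0.43). With replicate 4 as the only WT library it was 0.22. Bmf was also lower in Ly6Chi than in Ly6Clow Slc29a3-/- monocytes, at 66.8 ± 15.9 against 182 ± 14.4 RPM (-1.46 ± 0.28, SE; limma, adjusted P = 0.00015), as was Becn1 (-0.32, adjusted P = 0.041). These 2 of 5 compare with 41.2% of all genes, and 0 passed between subsets in WT or Slc29a3-/- Tlr7-/- mice (29.6% and 33.3%).

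Downstream of the mitochondrion, 16 genes of the apoptosome, the caspases and their inhibitors were tested. In Ly6Chi Slc29a3-/- against WT monocytes 3 were higher and 4 lower, where 27.9% of all genes passed. Birc5 (survivin, which also acts in cell division) averaged 265 ± 63.9 against 105 ± 31.03 RPM (log2 fold change 1.36 ± 0.23, SE; limma, adjusted P = 0.0010). It was also higher than in Slc29a3-/- Tlr7-/- mice (1.75 ± 0.23, SE; limma, adjusted P = 0.00018). Casp9, the caspase of the apoptosome, averaged 17.0 ± 3.47 against 8.96 ± 2.20 RPM (0.86, adjusted P = 0.0051), whereas Casp6 was lower (-0.67, adjusted P = 0.029). The proliferation genes moved with Birc5: all 13 were higher in Slc29a3-/- than in WT, and they summed to 1557 to 2606 RPM against 597 to 931 RPM. The part of this in Birc5 was not tested. In Ly6Chi Slc29a3-/- Tlr7-/- against WT monocytes 1 of the 16 was higher (Casp9; 1.46% of all genes passed), and between the mutants 1 was higher and 2 were lower in Slc29a3-/- mice (20.4%). In Ly6Clow limma called 0 for Slc29a3-/- against WT and 0 between the mutants (3 and 2 at a fold over 1.5 and an unadjusted P under 0.05), and for Slc29a3-/- Tlr7-/- against WT it called 2, both lower (Dffb, -0.93, and Casp8, -0.56). The shares of all genes there were 4.64%, 1.93% and 8.87%.

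Between the subsets, 2 of these 16 genes were higher and 2 lower in Ly6Chi WT, 4 and 4 in Slc29a3-/- and 4 and 2 in Slc29a3-/- Tlr7-/- mice, against 29.6%, 41.2% and 33.3% of all genes. Birc5 was the highest in each (log2 fold change 3.37, 4.98 and 3.39), and Htra2, which encodes a mitochondrial protease, was the lowest (-1.76, -1.65 and -1.47). Diablo, whose product relieves caspases of their inhibitors, was lower in WT (-0.62) and Slc29a3-/- mice (-0.90).

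Of the p53 pathway genes, 14 were tested in each subset. In Ly6Chi, 1 was higher and 3 were lower in Slc29a3-/- than in WT mice, 0 and 1 in Slc29a3-/- Tlr7-/- than in WT mice, and 2 and 1 in Slc29a3-/- than in Slc29a3-/- Tlr7-/- mice. The shares of all genes that passed were 27.9%, 1.46% and 20.4%. In Ly6Clow the counts were 1 and 1, 0 and 2, and 1 and 0, against 4.64%, 8.87% and 1.93%. The counts in Ly6Chi Slc29a3-/- mice are thus near the shares of all genes. Cdkn1a, the cell cycle inhibitor p21, passed in all 4 comparisons with WT. It was at 179, 214, 189.9 and 57.6 RPM in Ly6Chi WT and at 46.7, 47.4, 26.96 and 48.0 RPM in Ly6Chi Slc29a3-/- libraries. The groups did not overlap, with WT replicate 4 near the mutants, and the log2 fold change was -1.77 ± 0.35 (SE; limma, adjusted P = 0.0026). The other comparisons gave -1.55 (Ly6Chi Slc29a3-/- Tlr7-/-, adjusted P = 0.047), -1.65 (Ly6Clow Slc29a3-/-, adjusted P = 0.011) and -1.65 (Ly6Clow Slc29a3-/- Tlr7-/-, adjusted P = 0.014). With WT replicates 1 to 3 averaged, none of these passed (adjusted P = 0.066, 0.73, 0.26 and 0.25), at log2 fold changes of -1.34, -1.12, -1.22 and -1.21. With replicate 4 as the only WT library the values were -0.47, -0.25, -0.34 and -0.34, and none passed. In Ly6Chi Slc29a3-/- mice Mdm2 and Aen were also lower (-0.69 and -0.62) and Gtse1, a cell cycle gene, was higher (1.02). Between the subsets Phlda3, a p53 target that inhibits Akt, was lower in Ly6Chi in all 3 genotypes, at 0.553 ± 0.246 against 22.5 ± 1.70 RPM in WT (-3.93, limma adjusted P = 4.27e-12).

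Of 6 genes for the turnover of Mcl1 protein, 5 were tested. The ubiquitin ligase gene Huwe1 was lower in Ly6Chi Slc29a3-/- than in WT monocytes (130.0 ± 12.4 against 184 ± 14.2 RPM, log2 fold change -0.50, limma adjusted P = 0.018), and in the other comparisons of genotypes limma called 0, also at a fold over 1.5 and an unadjusted P under 0.05. Btrc was lower in Ly6Chi than in Ly6Clow monocytes in all 3 genotypes (-0.87, -0.74 and -0.89). Of all genes, 27.9% passed in Ly6Chi Slc29a3-/- against WT, and 7.67% with WT replicates 1 to 3 averaged. By pathway list in the order above, 0 of 5, 7 of 16, 4 of 14 and 1 of 5 tested genes passed there, 12 in all. With WT replicates 1 to 3 averaged 3 of them did, Birc5 and Gtse1 among them, and with replicate 4 as the only WT library 1 did (Birc5). The 2, 3 and 4 genes that passed in the other comparisons with WT (Ly6Chi Slc29a3-/- Tlr7-/-, Ly6Clow Slc29a3-/- and Ly6Clow Slc29a3-/- Tlr7-/-) became 0 in both alternatives. That says little about these genes, since of all genes 0, 65 and 6 passed there with replicates 1 to 3 averaged and 0, 35 and 0 with replicate 4 alone.

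The covariation of the genes was described after the mean of each subset had been removed, over 24 libraries that share genotypes, WT replicates and scaling. Pearson's r was 0.81 for Mcl1 with Bbc3, 0.79 for Bax with Bbc3, 0.78 for Mcl1 with Bax, 0.73 for Bcl2 with Bbc3, 0.67 for Bcl2 with Mcl1 and 0.62 for Bcl2 with Pmaip1, so these survival and death genes were high in the same libraries. Among them Pmaip1 had only 0.22 with Bax and 0.40 with Bbc3. With these genes Bid had an r between 0.31 (Bbc3) and 0.58 (Mcl1), and Bak1 between 0.03 (Pmaip1) and 0.35 (Bax). Such covariation was not seen for Bcl2l1, Bad and Bcl2l11. Bcl2l1 had an r of at most 0.21 with any member. Bad had -0.38 with Bcl2, -0.31 with Mcl1 and -0.41 with Bbc3, and Bcl2l11 had -0.21 with Bcl2 and 0.01 with Mcl1. The lowest r was -0.56, for Bak1 with Bcl2l11. Among 7492 genes, the genes most like Bcl2 in this measure were Nfkbid (0.91), D17Wsu92e (0.90) and Snord17 (0.89). Those most like Mcl1 were Adgre5 (0.90), Cebpb (0.88) and Arhgap26 (0.88). For Bbc3 they were Zfp36l2 (0.92), Pak4 (0.90) and Alg1 (0.90), and for Pmaip1 they were Slc3a2 (0.85), Mapk8 (0.78) and Cyth2 (0.78).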

How the data were processed

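RNA of 24 libraries was amplified with the Ion AmpliSeq Transcriptome Mouse kit, 1 amplicon per gene. The authors deposited 1 table of reads scaled to 1000000 per library (RPM) for 23930 amplicons, and these RPM values were used as they stand. The submitters' processing notes name Torrent Suite 5.2.2, its AmpliSeqRNA plug-in (version 5.2.0.3) and mm10. The methods of the study give Cutadapt, STAR, HTSeq and DESeq2, and which step wrote the table is not stated. A small constant stood for 0 reads and was set to 0. Spreadsheet dates in place of 27 gene names were repaired from the amplicon names. No column lacked a sample. Depth was inferred from the step between low values, and limits in reads cover counting error only.

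Genes that reached 1 RPM in 4 or more libraries of a subset were kept, transformed to log2(RPM + 1) and fitted with limma 3.58.1 in R 4.3.3 (intensity trend, 3 genotypes of a subset). Comparisons of subsets and interactions came from 1 model of 24 libraries. A gene passed at a Benjamini-Hochberg adjusted P under 0.05 over all genes tested. Fold changes on this scale understate changes of low genes. An exact permutation test, two-sided, was added for each of the 10 genes (smallest P 0.029). All of the 10 genes passed the filter in both subsets. The fit was tested on simulated data. The 10 genes and the gene lists were chosen with earlier results of these data known. All 10 genes are named in each comparison. Of the pathway lists, up to 4 called genes with the largest change and a mean of at least 10 RPM were named, except for a few that are not reported here. A further 8 Bcl2 family genes were not analysed here.

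Alternatives were TMM and RLE scaling, no filter, a pseudocount of 0.1, a mean of 10 RPM or more, other sets of libraries in the model, no intensity trend, a replicate block, each library left out, and the 2 alternatives for the WT libraries. Replicate numbers were checked as pairs by the correlation of deviations from the group means. Same-numbered libraries of the subsets correlated at 0.26 to 0.62 in WT, all over the limit of 0.1 set for pairing, at -0.08 to 0.26 in Slc29a3-/- and at -0.46 to 0.34 in Slc29a3-/- Tlr7-/- mice. Passing that limit did not single out a partner by number in WT. Ly6Chi WT replicate 2 correlated best with Ly6Clow replicate 3 (0.30 against 0.26), and Ly6Chi WT replicate 3 with Ly6Clow replicate 1 (0.32 against 0.26). Across genotypes the range was -0.19 to 0.15. Positions are from GENCODE vM21 (GRCm38) and sequences from RefSeq (GRCm38.p6). Python 3.11.15 with numpy 2.4.6, pandas 2.3.3, scipy 1.17.1 and matplotlib 3.10.9 was used.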

Additional observations from a re-analysis of the deposited data

Results flagged for a closer look

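A single library stood far from the other 3 of its group in 4 of 60 groups of 4 (10 genes in 6 groups). Chance alone gives about 1 in 20, or 3 groups. These were Pmaip1 in Ly6Chi WT replicate 4, at 1.95 RPM, Pmaip1 in Ly6Chi Slc29a3-/- Tlr7-/- replicate 4, at 7.216 RPM, Bak1 in Ly6Chi Slc29a3-/- Tlr7-/- replicate 2, at 116.886 RPM, and Bcl2l1 in Ly6Clow Slc29a3-/- replicate 4, at 28.362 RPM.

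Among the pathway genes named by the rule, the effect of a genotype differed between the subsets (Ly6Chi minus Ly6Clow, interaction in limma) for Birc5, Bmf, Casp6 and Ccng1. For Slc29a3-/- against WT, Birc5 differed by 1.61 (log2, adjusted P = 0.015) and Bmf by -1.517 (adjusted P = 0.016). Neither passed with WT replicates 1 to 3 averaged to 1 library (1.70, adjusted P = 0.081, and -1.42, adjusted P = 0.11), a fit in which 260.0 of all genes passed against 977. For Slc29a3-/- against Slc29a3-/- Tlr7-/-, which does not use WT, Birc5 differed by 1.586 (adjusted P = 0.018), Casp6 by -0.9352 (adjusted P = 0.036) and Ccng1 by -0.7774 (adjusted P = 0.038).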

How the results depend on the processing

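Over 120 pairs of gene and comparison, 16 passed, 90 passed in no setting and 30 in some. Of the 537 alternative values of these 30 pairs, 470 kept their side of the threshold, 46 no longer passed and 20 newly passed. The remaining 1 changed sign in a pair that had passed. It was Bcl2 in Ly6Chi Slc29a3-/- against WT with replicate 4 as the only WT library, at 0.1842. The 470 include changes of sign where neither value passed. An example is Mcl1 in Ly6Clow Slc29a3-/- against WT, at -0.32 and, with replicate 4 as the only WT library, at 0.45. Over all 120 pairs, 94 of 2302 alternative values had the opposite sign, 18 of them among the 60 with replicate 4 as the only WT library, and in the other 93 neither value passed. The count of 4 in that comparison was 2 with no filter (Bbc3 and Pmaip1), 2 with a mean of at least 10 RPM (Bcl2 and Mcl1, the others then being untested), 0 with replicate 4 as the only WT library and 0 with WT replicates 1 to 3 averaged. Between subsets the count of 5 in WT became 2 with WT replicates averaged (Bad and Bcl2). With only the groups compared, that of Slc29a3-/- went from 3 to 5 and that of Slc29a3-/- Tlr7-/- from 4 to 2. Leaving out 1 library gave 0 to 4, 0 to 1 and 0 to 2 genes in Ly6Chi (Slc29a3-/- against WT, Slc29a3-/- Tlr7-/- against WT, and between the mutants) and 0 to 3, 0 to 1 and 0 to 1 in Ly6Clow. It gave 3 to 5, 3 to 3 and 3 to 4 between subsets in WT, Slc29a3-/- and Slc29a3-/- Tlr7-/- mice, where Ly6Chi WT replicate 4 and Ly6Clow WT replicate 2 each lowered 5 to 3, and 0 to 1, 0 to 0 and 0 to 1 for the interactions. Only in WT did all same-numbered libraries of the subsets exceed the limit for pairing, which does not show that they were matched. The replicate block kept 5 genes there. In the other comparisons too, libraries are known to share only a number. There the replicate block gave 1 gene between the Ly6Chi mutants (Mcl1) and 1 for the interaction of Slc29a3-/- against WT (Pmaip1), against 0 without it. The cause of these shifts was not tested. Count tests on whole reads, planned as an alternative, were not run. The values step by whole reads, but the table as deposited holds a constant in place of 0 reads and was kept as RPM. Of the 10 genes Pmaip1 lies closest to the floor of 3 reads, and 4 libraries per group limit what can pass.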
